A study of Homo sapiens with 68 samples.

Results

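The transcripts described here come from 10 genes that encode heterogeneous nuclear ribonucleoproteins other than the immunoprecipitated ones: HNRNPA2B1 (ENSG00000122566), HNRNPD (ENSG00000138668), HNRNPDL (ENSG00000152795), HNRNPH1 (ENSG00000169045), HNRNPF (ENSG00000169813), HNRNPK (ENSG00000165119), HNRNPL (ENSG00000104824), HNRNPM (ENSG00000099783), HNRNPR (ENSG00000125944) and HNRNPU (ENSG00000153187). The rule that chose them uses no measured value, and a peak was taken when the Ensembl gene identifier in its name was that of a member. All 10 were found, out of 22843 genes with at least 1 listed peak, and they held 18322 of the 15800601 listed peaks. The peaks came from TLC-CLIP, in which ultraviolet light crosslinks proteins to RNA in cells, an antibody pulls down 1 protein, and the RNA fragments that stay attached are sequenced.

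Heterogeneous nuclear ribonucleoproteins coat nascent transcripts and influence splicing, polyadenylation, export and stability. Their own messages are long known as targets of such proteins, and several of the genes carry conserved exons whose inclusion leads to decay of the message, so that the family's members can adjust their own and each other's levels. Of the immunoprecipitated proteins, hnRNPA1 binds UAG-containing sites, hnRNP C (hnRNPc in the group names) binds runs of uridines, hnRNPI, also called PTBP1, binds pyrimidine-rich sites with UCUU, and RBFOX2 binds GCAUG. These preferences are background. No sequence of the peaks was read, because a genome of the lists' build was not used here, and for the same reason exons, introns and untranslated regions are not named.

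The study tested the method itself in HEK293T, a human embryonic kidney line, with 68 libraries in 34 groups of 2. The main groups here are the 4 proteins crosslinked, from 50000 cells at 0.005 U RNase, without polyacrylamide gel electrophoresis (PAGE) of the protein-RNA complexes, and the matching libraries without crosslinking. Other groups added the exonuclease RecJ, kept the PAGE step at low (0.005 U) or medium (0.025 U) RNase, used 10000 cells at 0.001 U or 1000 cells at 0.0001 U with PAGE for hnRNPc and RBFOX2, or are titled as 5000 and 500 cells of hnRNPc without PAGE. The labels give 50000 cells for those last groups, against their titles, and 0.005 U RNase. Each of them also has a version with RecJ. Another 4 groups, 1 per protein, were not crosslinked and kept the PAGE step, from 50000 cells at 0.005 U. That a library was not crosslinked is likewise known from its title alone, since the protocol given for it is that of the crosslinked samples. A further 4 groups came from gel regions of 50 to 75, 75 to 100, 100 to 150 and 150 to 250 kDa of an hnRNPc experiment. It used 10000 cells at 0.001 U RNase. All samples are of a single cell line, nothing in the labels says that replicates came from separate cultures, and the p-values therefore measure only the spread between these libraries, which may be technical. The libraries without crosslinking carry accession numbers in a separate run from the 50000-cell crosslinked libraries, so a preparation batch and crosslinking cannot be told apart.

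Each list gives a read number per peak, taken here as the reads over the peak, a meaning that no source states. The 8 crosslinked libraries without PAGE listed 157375 to 523402 peaks, and the 8 without crosslinking 44086 to 278452. Sequencing depth is unknown, so no counting interval is given. The value of a gene is its share of the read numbers of a library, in reads per 1000000 listed reads (RPM below), and it therefore depends on what else the library lists. The 10 genes of largest share took 15.3% to 37.3% of the listed reads of a crosslinked library without PAGE. Read numbers of neighbouring peaks can count the same reads more than once.

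All 4 proteins had peaks in all 10 transcripts in both replicates. In replicate 1 of hnRNPA1, 341 of 396 member peaks (86.1%) were overlapped on the same strand by a peak of replicate 2. The figure was 341 of 438 (77.9%) for hnRNPc, 150 of 210 (71.4%) for hnRNPI and 232 of 299 (77.6%) for RBFOX2. The members together took 0.399% and 0.431% of the listed reads of the 2 hnRNPA1 libraries, and 0.394% and 0.374% in hnRNPc. RBFOX2 gave 0.228% and 0.219%. The share was lowest in hnRNPI, at 0.0889% and 0.0867%.

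Each protein was then set against the mean of the other 3, in a fit over 17297 genes (limma on log2 of RPM + 1, Benjamini-Hochberg adjusted p below 0.05). The 4 comparisons use the same 8 libraries, so a low value in 1 protein raises the others. hnRNPA1 was higher on 9 of 10 members and lower on 1, where 45% of all genes tested were higher and 19.6% lower. hnRNPc was higher on 9 and lower on 0, against 44.2% and 24.1% of all genes. At an unadjusted p below 0.05 the fit passed 12405 of the 17297 genes for hnRNPc in either direction. hnRNPI ran the other way, with 1 member higher and 8 lower, against 43.5% and 33.8%. RBFOX2 was higher on 3 and lower on 5, against 23.8% and 57.5%. The median log2 difference of the members from the other 3 proteins was 1.20 in hnRNPA1 (0.36 over all genes tested) and 1.09 in hnRNPc (0.29). It was -1.28 in hnRNPI (0.17) and -0.25 in RBFOX2 (-0.79).

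These counts depend on the scale. With each library centred on its median gene, a setting added after the data had been seen, RBFOX2 was higher on 6 members and lower on 3 (37.4% and 40.8% of all genes), and hnRNPA1 higher on 7 and lower on 1 (25.4% and 36.2%). hnRNPc was higher on 9 and lower on 0 (34.3% and 36.3%; 12652 genes at an unadjusted p below 0.05), and hnRNPI higher on 1 and lower on 8 (45.4% and 30.7%). When the number of peaks replaced their reads, hnRNPI was lower on all 10 members, RBFOX2 was higher on 9, hnRNPA1 was higher on 0 and lower on 4, and hnRNPc was higher on 1 and lower on 4. Of the 8 libraries, those of hnRNPA1 listed the most peaks and those of RBFOX2 the fewest. In the libraries with PAGE, hnRNPI was lower on 7 members, while RBFOX2 was lower on 1 and higher on 0, hnRNPc was higher on 4, and hnRNPA1 was called on 0. In that fit hnRNPc replicate 1 holds only 3268 peaks. For the fits by number of peaks and with PAGE the shares of all genes are not given here. Their counts therefore show only that the calls depend on the setting.

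**Figure D1:**
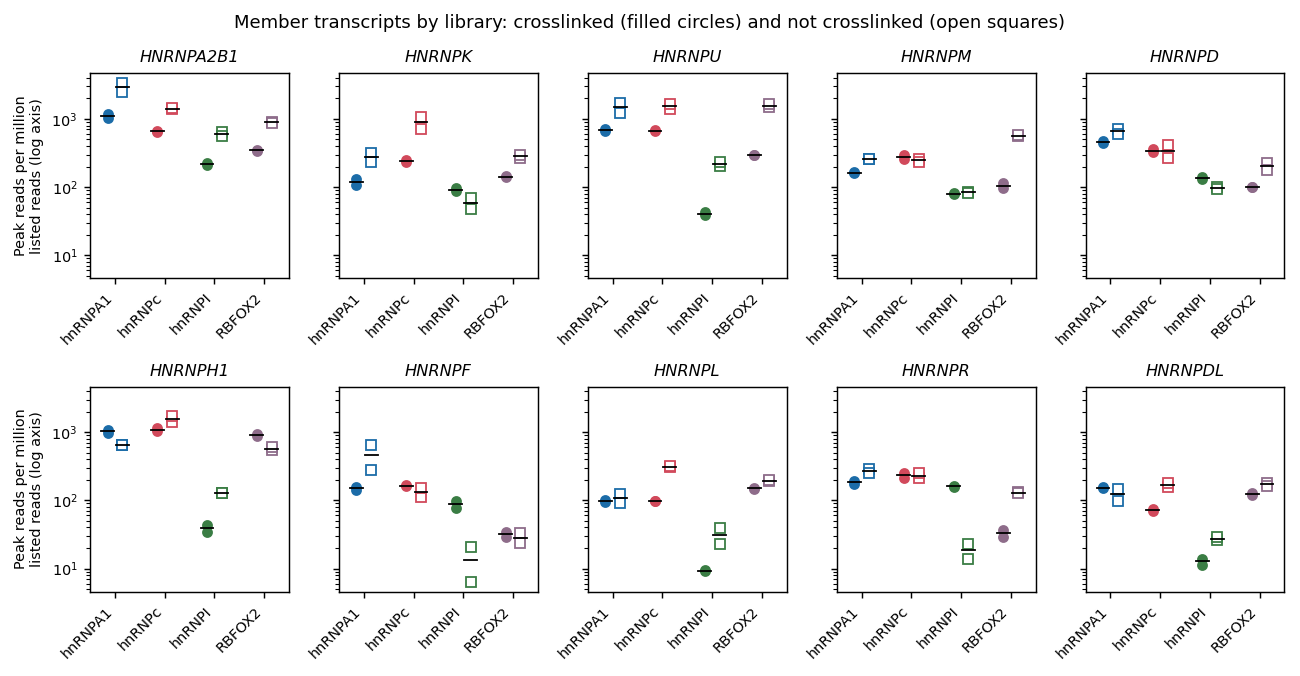
Reads per 1000000 listed reads (vertical log axis) in each of the 10 transcripts, for the 4 proteins in the libraries without PAGE; filled circles are the 2 crosslinked libraries, open squares the 2 without crosslinking, and bars the means. With crosslinking, hnRNPI lies far below the others on HNRNPH1 (34.7 and 43.6 against 888 to 1153), HNRNPU, HNRNPL and HNRNPDL. It lies close to them on HNRNPR and HNRNPF. Without crosslinking its mean is also lowest on HNRNPH1 (128 against 576 to 1562) and HNRNPU (218 against 1475 to 1563). The same holds for HNRNPL (31.3 against 108 to 311) and HNRNPDL (27.4 against 123 to 172).

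HNRNPH1 encodes a G-tract-binding regulator of splicing. Its peaks summed to 982 and 1083 RPM in hnRNPA1, 1153 and 1032 in hnRNPc, and 942 and 888 in RBFOX2. hnRNPI gave 34.7 and 43.6. hnRNPA1 and hnRNPc overlapped each other, RBFOX2 lay just below them, and every library of these 3 proteins was far above both of hnRNPI. The next protein in the order, RBFOX2, had a mean 23.3 times that of hnRNPI. The log2 difference from the other 3 proteins was -4.66 for hnRNPI (SE 0.10, adjusted p = 4.53e-07), 1.70 for hnRNPc, 1.60 for hnRNPA1 and 1.36 for RBFOX2, all called. By number of peaks, the difference was -0.76 for hnRNPA1 and -0.33 for hnRNPc. hnRNPI still listed 22 and 21 peaks here, of which 19 of replicate 1 recurred in replicate 2, but the highest held 29 and 34 reads.

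HNRNPF encodes the close relative of HNRNPH1, with the same type of RNA-binding domain. It gave 163 and 166 RPM in hnRNPc, 158 and 144 in hnRNPA1, 97.4 and 78.0 in hnRNPI, and 34.7 and 29.0 in RBFOX2. The proteins did not overlap, and the order placed RBFOX2 last where HNRNPH1 placed hnRNPI last. RBFOX2 differed from the others by -1.99 (SE 0.11, adjusted p = 2.40e-06), while hnRNPI, at -0.09 (adjusted p = 0.473), was not called. By number of peaks, a share of the list, the RBFOX2 value was 0.98. Its raw peak number was 17.5 on average, against 28.5 in hnRNPA1, 34 in hnRNPc and 14 in hnRNPI. Only 6 of the 19 RBFOX2 replicate 1 peaks recurred (31.6%), the lowest share among the 40 pairs of a member and a protein.

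HNRNPU encodes a nuclear matrix protein that binds both DNA and RNA. It gave 674 and 714 RPM in hnRNPA1, 654 and 678 in hnRNPc, and 292 and 297 in RBFOX2. In hnRNPI it gave 42.7 and 38.6, below every other library. hnRNPA1 and hnRNPc overlapped, and the RBFOX2 mean was 7.24 times that of hnRNPI. The difference was -3.63 for hnRNPI (SE 0.06, adjusted p = 3.60e-07), 1.78 for hnRNPA1 and 1.71 for hnRNPc, and 0.14 for RBFOX2 (adjusted p = 0.0528, not called).

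HNRNPL encodes a binder of CA-rich RNA and was the only member with its highest mean in RBFOX2. RBFOX2 gave 153 and 146 RPM, hnRNPA1 103 and 96.1, hnRNPc 97.4 and 98.8, and hnRNPI 9.09 and 9.36. RBFOX2 lay above all 6 other libraries, hnRNPA1 and hnRNPc overlapped, and hnRNPI was lowest. The difference was 1.69 for RBFOX2 (SE 0.07, adjusted p = 4.85e-07) and -3.48 for hnRNPI (SE 0.07, adjusted p = 3.90e-07). RBFOX2 also listed the most peaks here, 34 and 35, against 10 and 11 in hnRNPI. Without crosslinking the means were 311 RPM in hnRNPc, 194 in RBFOX2, 108 in hnRNPA1 and 31.3 in hnRNPI, so RBFOX2 was not highest there. The log2 change of RBFOX2 with crosslinking was -0.37 (not called), and -1.87 with median centring (called).

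HNRNPDL and HNRNPD encode related proteins with paired RNA recognition motifs, HNRNPD being AUF1, which binds AU-rich elements. The genes are neighbours on chromosome 4, with 49164 nt between their listed spans, yet their profiles differed. HNRNPDL gave 154 and 155 RPM in hnRNPA1, 127 and 118 in RBFOX2, 75.9 and 69.4 in hnRNPc, and 13.996 and 11.4 in hnRNPI, with no overlap between proteins. Its difference was -3.04 for hnRNPI (SE 0.09, adjusted p = 9.16e-07), 1.64 for hnRNPA1 and 1.20 for RBFOX2, and the hnRNPc value of 0.20 was not called (adjusted p = 0.0918). HNRNPD gave 438 and 475 RPM in hnRNPA1, 357 and 323 in hnRNPc, 139 and 133 in hnRNPI, and 99.9 and 99.0 in RBFOX2. RBFOX2 thus lay second on HNRNPDL and last on HNRNPD. The RBFOX2 difference was 1.20 on HNRNPDL and -1.46 on HNRNPD (SE 0.06, adjusted p = 6.24e-07). By number of peaks, a share of the list, the HNRNPD value was 0.66. Raw peaks on HNRNPD averaged 31.5 in RBFOX2, 29.5 in hnRNPI, 78.5 in hnRNPA1 and 68.5 in hnRNPc. hnRNPI was lower on both, by -0.87 on HNRNPD (SE 0.06, adjusted p = 1.68e-05).

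HNRNPA2B1 encodes the abundant A2 and B1 proteins, the nearest relatives of hnRNPA1 among the members. It gave 1019 and 1169.9 RPM in hnRNPA1, 648 and 663 in hnRNPc, 346 and 343 in RBFOX2, and 226 and 214 in hnRNPI. The 4 proteins did not overlap, and hnRNPA1 was highest. The difference was 1.57 for hnRNPA1 (SE 0.06, adjusted p = 1.37e-05), 0.59 for hnRNPc and -1.51 for hnRNPI (SE 0.06, adjusted p = 1.90e-06). The RBFOX2 value of -0.65 turned to 0.12 with median centring and 1.26 by number of peaks, so its direction depends on the scale. hnRNPA1 turned to -0.27 by number of peaks.

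HNRNPR encodes a protein with RNA recognition motifs and an RGG box, and was the only member called higher in hnRNPI. It gave 250.5 and 214 RPM in hnRNPc, 192 and 176 in hnRNPA1, 159.7 and 162 in hnRNPI, and 37.1 and 29.4 in RBFOX2. The hnRNPI libraries lay below those of hnRNPA1 and hnRNPc, and the mean of the other proteins that the fit compares them with includes the low RBFOX2 value. The difference was 0.51 for hnRNPI (SE 0.10, adjusted p = 3.38e-03) and -2.49 for RBFOX2 (SE 0.10, adjusted p = 6.65e-07). By number of peaks hnRNPI was at -0.28 and RBFOX2 at 0.10.

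HNRNPM encodes a splicing regulator that binds GU-rich RNA, and HNRNPK a poly(C)-binding protein with KH domains. HNRNPM gave 295 and 262 RPM in hnRNPc, 162 and 165 in hnRNPA1, 113 and 97.3 in RBFOX2, and 80.4 and 80.5 in hnRNPI. HNRNPK gave 249 and 229.8 in hnRNPc, 139 and 144 in RBFOX2, 107 and 131 in hnRNPA1, and 86.5 and 97.0 in hnRNPI. hnRNPc was highest on both and hnRNPI lowest, with no overlap between proteins. hnRNPc differed by 1.31 on HNRNPM (SE 0.08, adjusted p = 1.53e-05) and by 1.05 on HNRNPK (SE 0.09, adjusted p = 8.14e-05), and hnRNPI by -1.06 and -0.79. By number of peaks the HNRNPK value of hnRNPc was -0.51. HNRNPM was the weakest case for hnRNPA1, at 0.29 (adjusted p = 0.0145). That call was lost without hnRNPA1 replicate 1 (0.31) or 2 (0.28), and the value turned to -0.22 with median centring. HNRNPK was the only member lower in hnRNPA1, by -0.30 (adjusted p = 0.0270). The call was lost without hnRNPA1 replicate 1 (-0.15), hnRNPc replicate 1 (-0.28) or hnRNPI replicate 2 (-0.27).

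**Figure D2:**
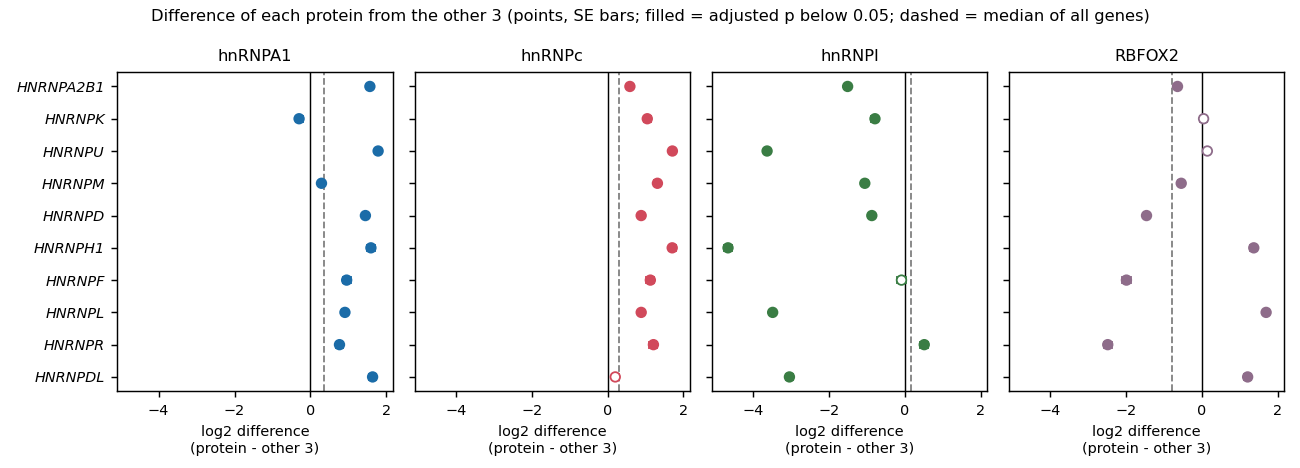
Log2 difference of each protein from the mean of the other 3 (horizontal axis, bars are the SE) for the 10 members in the 8 crosslinked libraries without PAGE; filled points passed adjusted p below 0.05 and the dashed line is the median of all 17297 genes. hnRNPI lies left of 0 on 9 members, from -0.09 on HNRNPF to -4.66 on HNRNPH1, and RBFOX2 ranges from -2.49 on HNRNPR to 1.69 on HNRNPL.

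Per kb of listed span, which lets genes be set side by side, HNRNPH1 and HNRNPA2B1 were the most densely covered in hnRNPA1, hnRNPc and RBFOX2. In hnRNPA1 they held 109 ± 7.54 and 103 ± 10.1 RPM per kb (SD, n = 2), against 3.70 ± 0.0513 for HNRNPM. hnRNPI had 20.8 ± 0.843 RPM per kb on HNRNPA2B1 and 4.14 ± 0.666 on HNRNPH1, below HNRNPK (7.47 ± 0.601) and HNRNPD (6.30 ± 0.193), and its lowest value was 0.600 ± 0.0123 on HNRNPL. The span runs from the first to the last base listed in any of the 68 libraries and is not an annotated gene length.

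The proteins were then compared by where their reads lay along each transcript. The span of each member was cut into 3 equal parts in the direction of transcription. On HNRNPD (chr4:83273691-83295254, minus strand) hnRNPI had 93.7% ± 3.33 (SD, n = 2) of its reads in the 5′ part, while hnRNPA1 spread over all 3 parts with 26.5%, 36.7% and 36.8%. On HNRNPR (chr1:23630353-23670799, minus strand) hnRNPI had 87.0% ± 0.126 in the middle part, and RBFOX2 had 64.6% ± 5.37 in the 3′ part. On HNRNPF (chr10:43881468-43904534, minus strand) hnRNPI had 73.3% ± 4.36 in the middle part. There hnRNPA1 had 65.9% ± 2.58 in the 3′ part and hnRNPc 54.5% ± 1.40 in the 5′ part.

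RBFOX2 had the largest share of its reads in the 5′ part on 3 members, in the middle on 1 and in the 3′ part on 6. On HNRNPU (chr1:245014489-245027840, minus strand) it had 72.8% ± 7.94 of its reads in the 5′ part, where hnRNPc had 76.9% ± 1.89 and hnRNPA1 64.1% ± 1.67 in the 3′ part. On HNRNPDL (chr4:83344419-83351130, minus strand) RBFOX2 had 59.0% ± 4.25 in the 5′ part and hnRNPc 69.3% ± 3.86 in the 3′ part. On HNRNPL (chr19:39327083-39342470, minus strand) RBFOX2 had 73.4% ± 1.49 in the 3′ part, and hnRNPA1 had 55.3% ± 3.41 in the middle. On HNRNPH1 (chr5:179041214-179050673, minus strand) RBFOX2 had 61.3% ± 2.44 in the middle part and hnRNPc 47.8% ± 2.04 in the 5′ part. On HNRNPA2B1 (chr7:26229799-26240376, minus strand) hnRNPI and hnRNPA1 lay mostly in the 3′ part, with 72.5% ± 3.37 and 68.1% ± 4.75, and hnRNPc had 30.3% ± 0.150 there. hnRNPc had 91.3% ± 0.577 in the 3′ part of HNRNPK (chr9:86583188-86595477, minus strand). On HNRNPM (chr19:8509870-8553981, plus strand) hnRNPc was nearly even, with 34.5%, 33.6% and 31.9% from 5′ to 3′.

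Some of these positions were much the same without crosslinking and others were not. RBFOX2 then had 57.7% ± 0.676 (SD, n = 2) of its HNRNPDL reads in the 5′ part and 69.7% ± 8.14 of its HNRNPL reads in the 3′ part, and hnRNPA1 had 71.4% ± 1.03 of its HNRNPA2B1 reads in the 3′ part. hnRNPA1 on HNRNPU had 18.3% ± 1.13 in the 3′ part in place of 64.1%, and on HNRNPF 98.6% ± 1.32 in place of 65.9%. hnRNPI had 55.6% ± 12.9 in the 5′ part of HNRNPD, and in the middle parts of HNRNPR and HNRNPF 15.3% ± 21.7 and 23.9% ± 33.8, with replicates far apart. These differences were not tested.

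**Figure D3:**
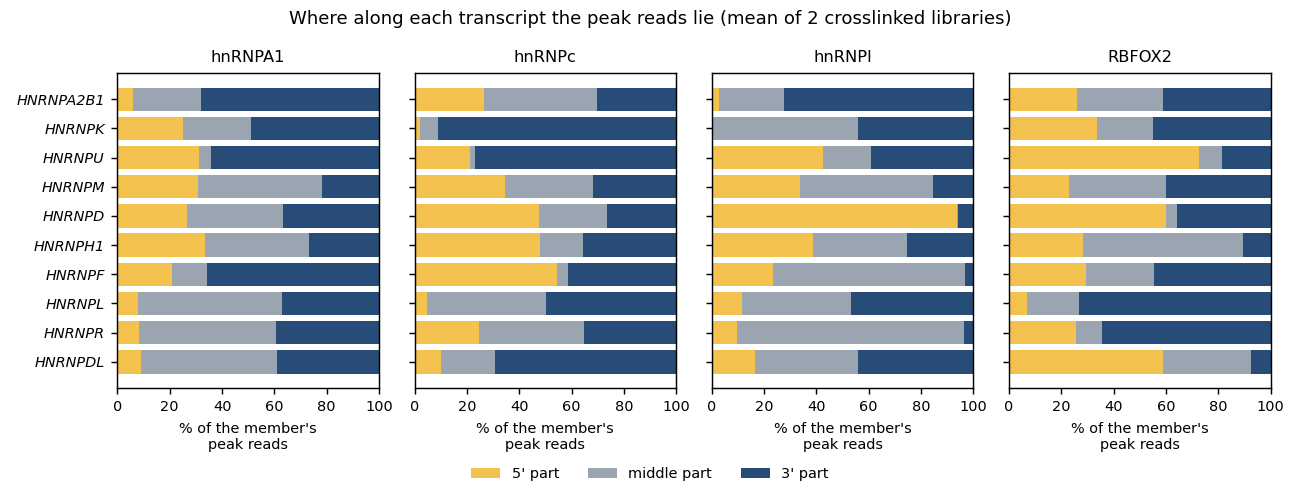
Percent of each member's peak reads (horizontal axis) in the 5′, middle and 3′ part of its listed span, mean of the 2 crosslinked libraries without PAGE, 1 panel per protein. The hnRNPI bars differ most between members, from 93.7% in the 5′ part of HNRNPD to 87.0% in the middle of HNRNPR and 72.5% in the 3′ part of HNRNPA2B1.

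To compare the same positions in every library, genes were cut into 100-nt windows, each valued by the highest read number among the peaks centred in it, and the fit was repeated over 716161 windows. The members had 645 of them. hnRNPA1 was higher in 224 member windows and lower in 228, where 26.3% and 34.9% of all windows tested were. hnRNPc was higher in 216 and lower in 240 (22.3% and 37.2%), hnRNPI higher in 57 and lower in 378 (20.6% and 38.7%), and RBFOX2 higher in 128 and lower in 294 (6.88% and 48.6%). The windows higher in a protein numbered 101 without hnRNPA1 replicate 1 and 100 without replicate 2. For hnRNPc they numbered 94 and 98, for hnRNPI 23 and 21, and for RBFOX2 72 and 77, with 519 to 605 member windows tested. HNRNPD held the most windows higher in hnRNPA1 (44 of 98), HNRNPD and HNRNPM the most higher in hnRNPc (38 of 98 and 38 of 117), HNRNPD the most higher in hnRNPI (13 of 98), and HNRNPH1 the most higher in RBFOX2 (26 of 55). On HNRNPH1, hnRNPI was higher in 0 of 55.

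A window can read 0 because the peak of a protein is centred in the next one. With windows valued by any peak that touches them, 212 of the 224 hnRNPA1 windows, 207 of the 216 of hnRNPc, 52 of the 57 of hnRNPI and 118 of the 128 of RBFOX2 were called again. The RPM values below are given on that basis, so that a 0 means that no listed peak touches the window. The counts of called windows below still rest on peak centres.

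The 5 windows of largest difference per protein were taken among called windows where both its replicates exceeded all 6 other libraries by peak centres. In them, low values of the other proteins are therefore partly fixed by the choice. The 5 hnRNPI windows lay on HNRNPF, HNRNPR, HNRNPK and HNRNPA2B1. Windows called higher in hnRNPI and above all 6 other libraries numbered 10 of 88 tested on HNRNPR, 7 of 117 on HNRNPM and 7 of 43 on HNRNPK. HNRNPD had 6 of 98 and HNRNPF 5 of 47. The share of all windows that meet both conditions is not given here. At chr10:43895101-43895200 in HNRNPF, 9384 nt from the 5′-most listed base, hnRNPI had 27.5 and 28.5 RPM, and all 6 other crosslinked libraries were at 0. Without crosslinking the same window of hnRNPI held 0 and 2.16. At chr1:23647001-23647100 in HNRNPR hnRNPI had 21.6 and 20.4, at chr9:86584501-86584600 in HNRNPK 20.5 and 19.2, and both windows were at 0 in the 6 other libraries and in hnRNPI without crosslinking. Their log2 differences were 4.86, 4.46 and 4.38, each with SE 0.05. HNRNPA2B1 gave a site shared with hnRNPA1, chr7:26230901-26231000, with 38.7 and 43.9 in hnRNPI and 22.9 and 30.0 in hnRNPA1, and 0 in the 4 libraries of hnRNPc and RBFOX2. The strongest hnRNPI window of HNRNPD, chr4:83294301-83294400, held 11.4 and 11.2.

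The 5 hnRNPA1 windows with the largest difference were all in HNRNPH1. At chr5:179048501-179048600 hnRNPA1 had 42.7 and 50.5 RPM, and the 6 other libraries were at 0. At chr5:179047601-179047700 it had 68.2 and 57.2, against at most 2.14 elsewhere. Without crosslinking hnRNPA1 held 7.60 and 5.23 in the former window and 7.60 and 10.6 in the latter. A site further downstream was shared. At chr5:179047201-179047300 RBFOX2 had 73.3 and 53.6 and hnRNPA1 74.6 and 79.9, from peaks centred on different windows, so that the centre-based difference of RBFOX2, 5.99 (SE 0.13), became 3.90 by touching peaks. hnRNPc and hnRNPI were at 0 there. In another of the 5 hnRNPA1 windows, chr5:179043301-179043400, hnRNPA1 had 48.5 and 39.9 with crosslinking and 39.8 and 42.6 without. Outside HNRNPH1, the strongest hnRNPA1 site of HNRNPF, chr10:43882801-43882900, had 40.7 and 43.1 RPM with crosslinking and more without it, 218 and 227.

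hnRNPc had its strongest member site at chr5:179049401-179049500 in HNRNPH1, with 83.8 and 92.3 RPM, upstream of the hnRNPA1 sites. RBFOX2 had 31.4 and 27.3 there, hnRNPI 2.96 and 3.83, and hnRNPA1 0. Without crosslinking hnRNPc held 72.4 and 24.6 in this window. Its largest difference was in HNRNPU at chr1:245017501-245017600, with 55.0 and 43.4 against at most 1.33 elsewhere (log2 difference 5.44 by touching peaks, and 5.64 with SE 0.10 by centres), and 85.1 and 44.5 without crosslinking. In HNRNPA2B1 at chr7:26234001-26234100 it had 29.9 and 32.3 against 0 in all others, and 36.5 and 25.9 without crosslinking. At chr5:179045701-179045800 in HNRNPH1 it had 31.8 and 22.7, and 0 and 8.26 without crosslinking. There hnRNPI had 2.86 and 3.72.

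The 5 RBFOX2 windows with the largest difference lay near the 5′ end of HNRNPU and in the middle of HNRNPH1. Windows higher in RBFOX2 also numbered 20 of 48 tested on HNRNPL, 16 of 43 on HNRNPK, 13 of 117 on HNRNPM and 13 of 40 on HNRNPDL. At chr1:245026701-245026800, 1090 nt from the 5′-most listed base of HNRNPU, RBFOX2 had 20.0 and 16.9 RPM, and the other 6 libraries were at 0. Without crosslinking that window held 23.2 and 20.5. At chr5:179046501-179046600 in HNRNPH1 it had 21.2 and 15.1 against 0 elsewhere, and without crosslinking 0 and 8.12. On HNRNPL its strongest window, chr19:39329601-39329700, held 14.5 and 9.78, and more without crosslinking, 19.6 and 20.5. On HNRNPDL, chr4:83350001-83350100 held 11.2 and 11.3, and 11.3 and 0 without crosslinking.

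**Figure D4:**
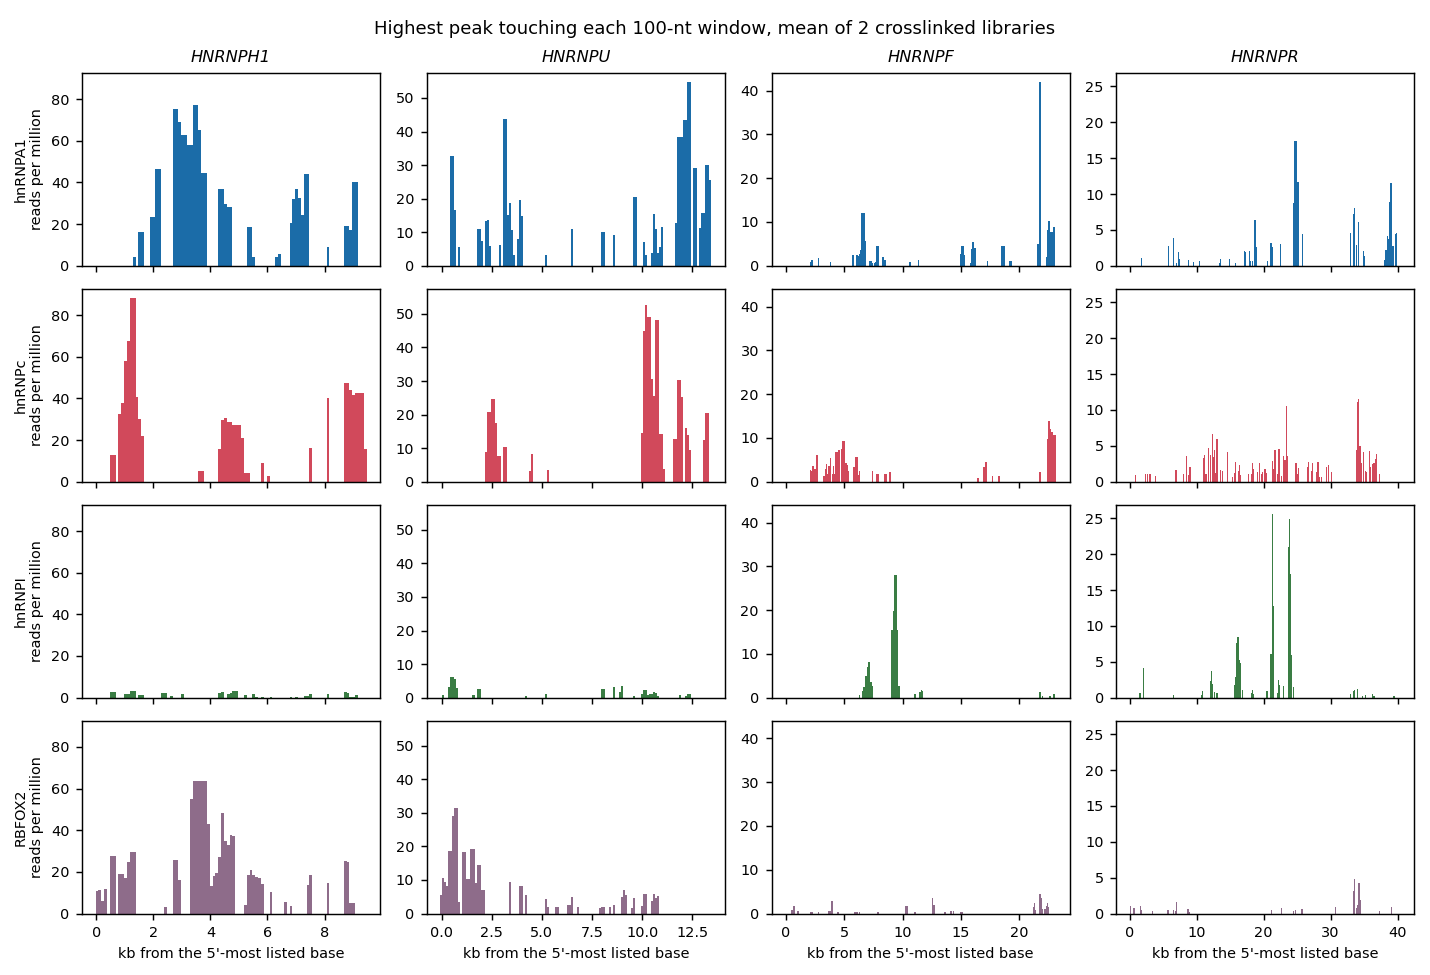
Highest peak touching each 100-nt window (vertical axis, reads per 1000000 listed reads, mean of 2 crosslinked libraries without PAGE, 1 common scale per column) against the distance in kb from the 5′-most listed base, for 4 members (columns) and 4 proteins (rows). hnRNPI is near 0 along HNRNPH1 and HNRNPU but has the tallest windows of HNRNPR, while RBFOX2 on HNRNPU lies near the 5′ end.

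Member windows were often shared between proteins. Of 429 member windows touched by both hnRNPA1 replicates, 33.6% had no peak of another protein in either replicate, against 58.6% over all genes. The values were 40.6% of 429 windows and 61.0% for hnRNPc, 27.5% of 200 and 61.4% for hnRNPI, and 26.7% of 273 and 41.0% for RBFOX2. Both replicates of all 4 proteins touched 32 member windows, and 2229 windows over all genes. These were 7.46% of the member windows of hnRNPA1, against 0.525% over all genes. The shares were 7.46% and 0.682% for hnRNPc, 16% and 0.675% for hnRNPI, and 11.7% and 1.99% for RBFOX2. HNRNPA2B1 held 12 of the 32 member windows, HNRNPD 7 and HNRNPH1 5, and HNRNPF, HNRNPK and HNRNPR held 0. On HNRNPF 13 of 19 hnRNPI windows (68.4%) had no peak of another protein, and on HNRNPA2B1 0 of 20. Since peak numbers differ between libraries and genes, these shares are a description and were not tested.

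Crosslinked libraries were compared with libraries without crosslinking within each protein, which asks how the signal stands against the background of the assay. The fit covered 18135 genes. hnRNPA1 was higher with crosslinking on 1 member and lower on 5, where 19% and 13% of all genes were. hnRNPc was higher on 0 and lower on 6 (14.2% and 5.73% of all genes), hnRNPI higher on 3 and lower on 5 (47.9% and 12.4%), and RBFOX2 higher on 1 and lower on 6 (24% and 9.04%). At an unadjusted p below 0.05, 5680 of all genes passed for hnRNPc in either direction. The members thus held a larger share of the listed reads without crosslinking, 0.828% and 0.620% in hnRNPA1 and 0.456% and 0.466% in RBFOX2. With median centring, hnRNPA1 was higher and lower on 0 members (5.91% and 4.94% of all genes). hnRNPc was higher on 0 and lower on 2 (1.12% and 2.26%), hnRNPI higher on 0 and lower on 8 (20.1% and 48.5%), and RBFOX2 higher on 0 and lower on 9 (3.84% and 40.1%). The counts at an unadjusted p below 0.05 with centring were 4688 genes in hnRNPA1, 2637 in hnRNPc, 12948 in hnRNPI and 10126 in RBFOX2.

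HNRNPA2B1 and HNRNPU were lower with crosslinking in all 4 proteins. HNRNPA2B1 went from 3417 and 2515 RPM to 1019 and 1169.9 in hnRNPA1, and from 635 and 557 to 226 and 214 in hnRNPI. Its log2 changes were -1.42, -1.11, -1.43 and -1.37 in hnRNPA1, hnRNPc, hnRNPI and RBFOX2 (SE 0.15), all called. With median centring the calls of both genes were lost in hnRNPA1 and hnRNPc, at -1.44 (adjusted p = 0.0812) and -1.31 (adjusted p = 0.220) on HNRNPA2B1 and -1.08 (adjusted p = 0.181) and -1.40 (adjusted p = 0.151) on HNRNPU. HNRNPU changed most in RBFOX2 and hnRNPI, by -2.40 in each (SE 0.16), from 1489 and 1636 RPM to 292 and 297 in RBFOX2. No replicate of the crosslinked groups overlapped those without crosslinking on either gene. With PAGE, however, hnRNPc turned to 0.61 on HNRNPA2B1 and 0.12 on HNRNPU, in a fit that includes its replicate of 3268 peaks.

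The largest increases were in hnRNPI. HNRNPR held 14.03 and 23.2 RPM without crosslinking and 159.7 and 162 with it, a log2 change of 3.09 (SE 0.22, adjusted p = 5.21e-07). HNRNPF went from 6.29 and 20.7 to 97.4 and 78.0, a change of 2.81 (SE 0.49, adjusted p = 4.27e-04). With median centring, the changes were 1.02 (adjusted p = 0.0719) and 0.74 (adjusted p = 0.218), so neither call held. As a share of listed peaks HNRNPF turned to -0.74, while its raw peaks averaged 14 with crosslinking and 5 without. With PAGE, HNRNPR held 0 and 14.997 RPM in hnRNPI without crosslinking and 156 and 161 with it. HNRNPF did not repeat there, with 97.9 and 55.0 against 82.1 and 99.5.

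In RBFOX2, HNRNPM fell by 2.43 on the log2 scale (SE 0.12, adjusted p = 3.15e-07), from 565 and 572 RPM to 113 and 97.3, and HNRNPR fell by 1.94 (SE 0.22, adjusted p = 6.77e-05), from 133 and 127 to 37.1 and 29.4. HNRNPH1 was higher with crosslinking in hnRNPA1 (0.68, SE 0.15, adjusted p = 4.99e-03) and RBFOX2 (0.67, SE 0.15, adjusted p = 4.87e-03), and lower in hnRNPI (-1.69) and hnRNPc (-0.51, adjusted p = 0.0324). The hnRNPc call was lost without hnRNPc replicate 1 or 2 or replicate 2 without crosslinking (-0.59, -0.43 and -0.36). Both increases turned negative as a share of listed peaks, and the RBFOX2 value was -0.83 with median centring. Raw HNRNPH1 peaks averaged 35 with and 35 without crosslinking in hnRNPA1, and 47.5 and 29.5 in RBFOX2. On HNRNPK, hnRNPc changed by -1.86, hnRNPA1 by -1.18 and RBFOX2 by -1.001, all called. The hnRNPI value of 0.65 (adjusted p = 0.0326) turned to -1.42 with median centring, and its call was lost without hnRNPI replicate 1 (0.73) or 2 (0.57) or replicate 2 without crosslinking (0.38). On HNRNPF the hnRNPA1 value of -1.50 (adjusted p = 0.0380) rested on 658 and 280.2 RPM without crosslinking. It was -0.89 without replicate 1 of those, and the call was also lost under the replicate block, at a pseudocount of 0.25 and without any single crosslinked library, where it lay between -1.57 and -1.44.

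**Figure D5:**
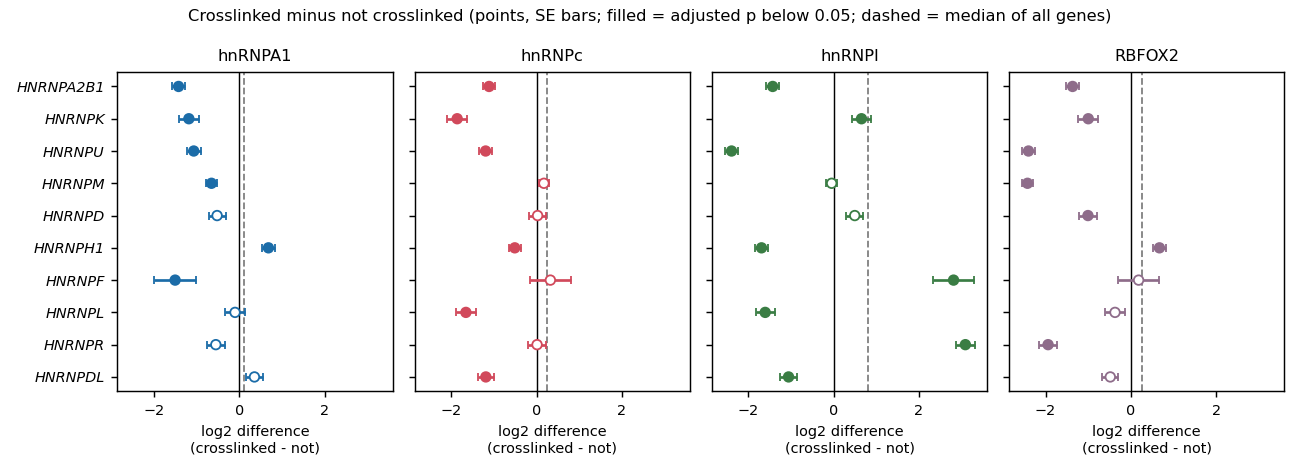
Log2 difference of crosslinked minus not crosslinked libraries (horizontal axis, bars are the SE) for the 10 members and 4 proteins without PAGE; filled points passed adjusted p below 0.05 and the dashed line is the median of all 18135 genes. HNRNPA2B1 and HNRNPU lie left of 0 in every panel, and HNRNPR and HNRNPF lie right of 2 in hnRNPI alone, a scale on which the median gene of hnRNPI is at 0.80.

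RecJ digestion moved the member means by factors of 0.756 to 1.13 over the 4 proteins. Without overlap of replicates, 1 member was higher and 3 lower with RecJ in hnRNPA1 (19% and 14.6% of all genes). hnRNPc had 1 higher and 4 lower (13.1% and 19.1%), and hnRNPI 2 higher and 1 lower (17.6% and 16.2%). In RBFOX2 0 were higher and 0 lower (16.8% and 14%), as all 10 members overlapped. With RecJ, HNRNPH1 was again at 1062 and 1078 RPM in hnRNPA1 and 41.5 and 44.4 in hnRNPI. Medium against low RNase in hnRNPA1 gave ratios from 0.626 to 1.48, with 3 members higher and 4 lower in both replicates (32.5% and 33.6% of all genes). HNRNPA2B1 went from 930.3 and 812 RPM at low to 574 and 516 at medium RNase, and HNRNPL from 110.2 and 126 to 181 and 169. These differences between preparations were not tested.

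In the hnRNPc libraries titled as 500 cells, member means were 0.644 to 1.19 times those of 50000 cells, with HNRNPDL lowest, at 39.5 and 54.1 RPM against 75.9 and 69.4. Here 6 members were higher and 1 lower without overlap, against 25.1% and 26.6% of all genes. With 5000 cells the ratios were 0.712 to 1.18, with 3 higher and 4 lower (27.5% and 17%). From 10000 to 1000 cells with PAGE they were 0.862 to 1.22 in hnRNPc, with 1 higher and 2 lower (13.4% and 24.6%), and 0.550 to 1.39 in RBFOX2, with 1 higher and 4 lower (23.2% and 22.6%). HNRNPDL gave the lowest ratio in RBFOX2, at 118 and 185 RPM from 1000 cells against 259.5 and 291 from 10000, but the highest in hnRNPc, 1.22. In RBFOX2 with PAGE it was also the member with the highest ratio of 10000 to 50000 cells, 2.32. RNase was scaled with cell number in the groups with PAGE, so there the effects cannot be told apart. The 10000-cell and 50000-cell libraries are also numbered in separate runs, so a preparation batch cannot be told apart from cell number either.

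With PAGE against without, 8 members were higher and 0 lower in RBFOX2, where 79.6% and 5.72% of all genes were, and 2 were higher and 4 lower in hnRNPA1 (55.5% and 10.4%). hnRNPI had 4 higher and 2 lower (39.6% and 19.8%), with HNRNPA2B1 at 134 and 97.1 RPM with PAGE against 226 and 214 without. In hnRNPc 8 members were higher and 0 lower (4.82% and 48.9%), but the ratios of up to 3.57 rest on the replicate of 3268 peaks, which gave 5284 RPM on HNRNPH1 and 0 on HNRNPR. Replicate 2 alone gave ratios of 0.920 to 1.66 to the mean without PAGE.

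The 8 libraries of the 4 gel regions, which are titled as background, listed few member peaks, in lists of 303 to 6716 peaks in all. HNRNPA2B1 had 1 to 5 peaks in each of the 8 libraries, HNRNPH1 had 24 peaks in 6 of them and HNRNPU 16 in 7. HNRNPF and HNRNPDL had 0 in all 8. The 75 to 100 kDa region held 41 of these peaks, and its lists are the longest of the 4 regions. HNRNPH1, HNRNPA2B1 and HNRNPU were also the members with the most reads per kb in hnRNPc from 50000 cells without PAGE, at 115 ± 9.05, 62.0 ± 0.990 and 49.9 ± 1.28 RPM per kb (SD, n = 2).

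Across the 16 crosslinked 50000-cell libraries without PAGE, with and without RecJ, the gene whose log2 value was most like the mean of the members was ENSG00000116560, with Pearson r = 0.994, followed by ENSG00000115484, with r = 0.993, out of 18401 other genes. The files do not pair these identifiers with names. The points are 4 proteins in 4 libraries each.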

How the data were processed

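The data are 68 lists of binding peaks from TLC-CLIP of HEK293T cells, 34 groups of 2. The submitters' processing notes name bcl2fastq, UMI-tools 1.0.1, STAR 2.7.3a and the build hg19, and the file names point to the peak caller CLIPper, with settings that no source used here states. Each peak carries a p-value that the authors' peak caller gave before the lists were deposited, at most 0.00755 in all lists, and a name with the gene identifier and a whole number of 4 or more. That number is used as the reads of the peak, a meaning the sources used here do not state. Lists were made per library. Coordinates are given counted from 1.

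For each library, read numbers were summed per gene and divided by the sum over all peaks. Values were tested as log2 of reads per 1000000 listed reads + 1 with limma 3.58.1 in R 4.3.3 (eBayes with trend), over genes with a peak in at least 2 libraries of the fit, and p-values were adjusted by Benjamini-Hochberg over all features. Windows were 100 nt. Tables were made with Python 3.11.15, pandas 2.3.3 and numpy 2.4.6, and the fits were checked on simulated data. Sequencing depth is unknown, and 2 libraries per group limit the precision.

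All members are named. The windows given are some of the strongest per member and protein, and some of the 5 per protein with the largest difference, chosen as stated above. Members and lists were chosen with earlier results of these data known. Of 20 further symbols of a comparison list, 0 could be matched to identifiers, and they are not analysed here. Alternatives covered pseudocounts, filters, peak p, peak numbers, clusters, windows, the replicate block, left-out libraries, and RecJ or PAGE libraries. Median centring and windows by overlap were added after the data had been seen. Same-numbered replicates of different proteins did not deviate together (correlations of -0.0038 to 0.013 over 17297 genes), so the numbers were not taken to pair samples.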

Additional observations from a re-analysis of the deposited data

Results flagged for a closer look

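On 4 members the effect of crosslinking differed between 2 proteins, with the 2 effects of opposite sign and both called. The test was of the difference between 2 proteins' log2 changes in the fit of 16 libraries (limma, Benjamini-Hochberg over all genes). The share of all genes that meet this rule is not given here. Differences were also called on HNRNPM, HNRNPU, HNRNPD, HNRNPL and HNRNPDL, without 2 called effects of opposite sign. On HNRNPM hnRNPc minus RBFOX2 was 2.60 (adjusted p = 5.96e-06), and 3.90 with median centring (adjusted p = 1.88e-04). With median centring no member was called higher with crosslinking in any protein, so no pair kept 2 called effects of opposite sign. All changes below are on the log2 scale, and no explanation was tested.

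On HNRNPR the change in hnRNPI exceeded that in RBFOX2 by 5.03 (adjusted p = 5.40e-07), and by 4.46 with median centring (adjusted p = 3.24e-06). On HNRNPF the change in hnRNPA1 minus that in hnRNPI was -4.31 (adjusted p = 4.00e-04), and -2.26 with centring (adjusted p = 0.018).

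On HNRNPH1 hnRNPA1 minus hnRNPI was 2.38 (adjusted p = 6.83e-06), hnRNPI minus RBFOX2 was -2.36 (adjusted p = 5.70e-06), hnRNPA1 minus hnRNPc was 1.19 (adjusted p = 0.00344) and hnRNPc minus RBFOX2 was -1.18 (adjusted p = 0.00231). With centring the differences that involve hnRNPI kept their call (4.43 and -2.93), but hnRNPI and RBFOX2 then had effects of the same sign (-3.76 and -0.83). Those of hnRNPc with hnRNPA1 (1.38, adjusted p = 0.492) and with RBFOX2 (0.12, turned in sign, adjusted p = 0.920) lost their call.

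On HNRNPK hnRNPI stood against the other proteins. hnRNPA1 minus hnRNPI was -1.83 (adjusted p = 8.75e-04), hnRNPc minus hnRNPI was -2.51 (adjusted p = 1.18e-04) and hnRNPI minus RBFOX2 was 1.65 (adjusted p = 0.00169). With centring the calls on HNRNPK were lost, with values of 0.22 (turned in sign, adjusted p = 0.830), -0.65 (adjusted p = 0.495) and 1.08 (adjusted p = 0.288).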

How the results depend on the processing

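Counts of called members depend on what is counted and on the libraries used. Number of peaks again means a gene's share of the listed peaks of its library. Shares of all genes are given above for median centring and not for the other settings here. The counts therefore show only how the calls depend on the setting. By number of peaks, hnRNPA1 was higher on 0 and lower on 4, hnRNPc higher on 1 and lower on 4, hnRNPI higher on 0, and RBFOX2 higher on 9 and lower on 0. With the highest peak per cluster, hnRNPA1 was lower on 0, hnRNPc lower on 1, hnRNPI higher on 0, and RBFOX2 higher on 7 and lower on 3. In PAGE libraries hnRNPA1 was higher and lower on 0, hnRNPc higher on 4, hnRNPI higher on 0, RBFOX2 higher on 0 and lower on 1, and hnRNPc was higher in 44 windows. Median centring gave RBFOX2 6 higher and 3 lower, and peaks with p below 1e-05 gave hnRNPA1 0 lower. Under the stricter filter, which left 52 member windows, those higher numbered 33, 27, 2 and 18 in hnRNPA1, hnRNPc, hnRNPI and RBFOX2. By overlap they numbered 361, 362 and 104 in the first 3. For crosslinking, centring gave hnRNPA1 0 higher and 0 lower, hnRNPc 2 lower, hnRNPI 0 higher and 8 lower, and RBFOX2 0 higher. Number of peaks gave hnRNPA1 0 higher, hnRNPI 0 higher and 8 lower, and RBFOX2 0 higher. PAGE libraries gave hnRNPA1 0 higher and 1 lower, hnRNPc 1 lower, hnRNPI 0 higher and 3 lower, and RBFOX2 0 higher and 2 lower. The other 174 values of these counts lay within 1.5 times. The causes were not tested.

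Called differences between proteins that changed sign by number of peaks were, in hnRNPA1, HNRNPA2B1 (-0.27), HNRNPU (-0.26), HNRNPM (-0.33), HNRNPH1 (-0.76), HNRNPF (-0.31), HNRNPL (-0.38), HNRNPR (-0.39) and HNRNPDL (-0.10). In hnRNPc they were HNRNPK (-0.51), HNRNPU (-0.42), HNRNPH1 (-0.33) and HNRNPL (-0.51). In hnRNPI it was HNRNPR (-0.285), and in RBFOX2 HNRNPA2B1 (1.26), HNRNPM (0.99), HNRNPD (0.66), HNRNPF (0.98) and HNRNPR (0.098). Cluster maxima turned HNRNPA2B1 (-0.039) and HNRNPK (-0.28) in hnRNPc, and HNRNPA2B1 (0.40) and HNRNPM (0.20) in RBFOX2. Centring turned HNRNPM in hnRNPA1 (-0.22) and RBFOX2 (0.22), and HNRNPA2B1 in RBFOX2 (0.12). PAGE libraries turned HNRNPM in RBFOX2 (0.12) and HNRNPR in hnRNPc (-2.83). Crosslinking changes that turned were, in PAGE libraries, hnRNPc on HNRNPA2B1 (0.61), HNRNPU (0.12) and HNRNPH1 (0.79), and hnRNPI on HNRNPK (-0.54) and HNRNPDL (1.099). By number of peaks they were hnRNPI on HNRNPK (-2.85) and HNRNPF (-0.74), and HNRNPH1 in hnRNPA1 (-1.43) and RBFOX2 (-0.79). Centring turned HNRNPK in hnRNPI (-1.42) and HNRNPH1 in RBFOX2 (-0.83).

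Without each library in turn, members higher and lower ranged from 8 to 9 and 0 to 1 in hnRNPA1, 9 to 10 and 0 in hnRNPc, 1 and 8 in hnRNPI, and 3 to 4 and 5 in RBFOX2. Windows ranged from 100 to 227, 94 to 217, 21 to 60 and 72 to 129. For crosslinking they ranged from 1 to 2 and 4 to 6 in hnRNPA1, 0 and 5 to 6 in hnRNPc, 2 to 4 and 5 in hnRNPI, and 1 and 6 to 7 in RBFOX2. The count of 1 member lower in hnRNPA1 was 0 without hnRNPA1 replicate 1, hnRNPc replicate 1 or hnRNPI replicate 2, and the 1 member higher with crosslinking in hnRNPA1 became 2 without its replicate 1 that was not crosslinked. A lone library was assumed to vary like the other groups. With the replicate number as a block, the numbers of members called were as without it, except 4 in place of 3 higher with crosslinking in hnRNPI, and windows numbered 221, 210, 55 and 126. That block ended the call of HNRNPF in hnRNPA1 with against without crosslinking. RecJ libraries changed no called difference between proteins.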
